A study of Homo sapiens with 18 samples.

Results

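Gene expression in THP-1 macrophage-like cells that carried Siglec-14 was compared with that in cells carrying an empty vector, both after exposure to medium from colorectal cancer cells. THP-1 is an established human monocytic leukaemia line, and treatment with phorbol 12-myristate 13-acetate (PMA) makes its cells adherent and macrophage-like. Per the labels, 100 nM PMA was given for 24 h, and medium conditioned by SW620 (a colorectal cancer line in wide use) followed at 50% for 48 h in both groups. The groups were the empty-vector line (EV) and the Siglec-14 line (S14), with 3 libraries each, chosen by line and medium from the titles: 6 of the 18 libraries of the series. The other libraries were of a Siglec-5 line in the same conditioned medium, and of all 3 lines in mock medium after the same PMA treatment. Of 60623 genes in the deposited table, 17851 passed the expression filter and were tested. Each vector was represented by 1 line, so the transgene and other differences between the lines cannot be told apart, and the sources used here do not say whether a line was 1 clone. No source used here says that replicates came from separate cultures, and p-values therefore measure the spread between these libraries, which may be technical.

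Siglecs are sialic acid-binding receptors of white blood cells. Siglec-14 has no inhibitory tail of its own and signals through DAP12, the adaptor encoded by TYROBP, whose tyrosine motif (ITAM) recruits the kinase SYK after phosphorylation by Src family kinases. Siglec-5, its near twin, carries inhibitory motifs, and tumour cells often display sialic acid ligands that such receptors bind.

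Total counts ranged from 15.0 to 26.0 M per library. On the first principal component of the 6 libraries (49.6% of the variance) the lines separated, and on the second (34.5%) replicate 3 stood apart from replicates 1 and 2 in both lines. Replicates 1 and 2 differed by a chi-square per degree of freedom of 7.09 in EV and 10.5 in S14, against 50.9 to 143 for replicate 3 against either of them, so no library repeated another. Mitochondrially encoded mRNAs made up 3.60, 3.33 and 4.06% of the counts in EV and 3.11, 2.88 and 4.51% in S14. Values of single libraries are given in the order of replicates 1, 2 and 3. All 12 monocyte and macrophage markers passed the expression filter, with summed levels of 6224 to 6589 normalised read counts (CPM, counts per M of the scaled library) in EV and 4904 to 5087 in S14. CD68 added little to these sums, at 0.648, 0.960 and 0.845 CPM in EV and 1.62, 1.45 and 1.27 CPM in S14, and the reason for its low level was not tested. Of 16 markers of colorectal epithelium, 6 (EPCAM, KRT19, KRT20, CEACAM5, MUC2 and TFF3) had no count in any library, and the summed level was 12.5 to 19.8 CPM in EV and 10.3 to 18.1 in S14. Among the lymphocyte, fibroblast, endothelial and muscle markers, none was called by edgeR without the replicate number in the model, also at an unadjusted p under 0.05. With it as a block, VWF of endothelium and NKG7 of lymphocytes were called (adjusted p = 0.00800 and 0.0211). Between 41.7 and 48.4% of the exonic bases of APOC1, ASNS, CTSD, IRF9 and ST6GALNAC6 also belong to another gene model on the same strand, and between 28.5 and 36.1% of those of DDIT3, HLA-F, LYZ, MTHFD2 and SELENOP to one on the opposite strand, so the counts of these genes are uncertain. In bulk RNA, fewer cells expressing a gene and less RNA per cell cannot be told apart.

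The expressed receptor was examined first. SIGLEC14 (ENSG00000254415, chromosome 19, 51642553 to 51646801, minus strand, GRCh38) stood at 22.7, 21.2 and 16.2 CPM in the EV libraries and at 706, 779.8 and 503 CPM in the S14 libraries. Every S14 library lay far above every EV library, and the lowest S14 value was that of replicate 3. The means differed 33.1-fold (log2 fold change 5.05 ± 0.29, edgeR quasi-likelihood test with Benjamini-Hochberg adjustment, adjusted p = 1.53e-07), and an exact two-sided permutation test gave p = 0.1, the smallest that 3 against 3 libraries allow. Of 13 Siglec genes tested, 2 were higher and 3 lower. CD33, an inhibitory Siglec of myeloid cells, went from 179, 168 and 172 CPM to 104, 101 and 113 CPM and fell by 0.70 ± 0.14 on the log2 scale (adjusted p = 0.00319). SIGLEC11 (-1.41) and SIGLEC16 (-1.63) were lower too, but they are near-identical copies whose reads may have been split between them, and with 1 library left out each lost its call (adjusted p up to 0.104 without EV replicate 1 or 2 or S14 replicate 1 or 2 for SIGLEC11 and 0.0762 without S14 replicate 2 for SIGLEC16). The other gene called higher was CD22, a B cell Siglec, at 23.5 against 49.2 CPM (1.07), named after its value was seen, and its libraries overlapped. SIGLEC14 was the 1 Siglec called higher without EV or S14 replicate 1 or 2, and 1 Siglec was called lower without S14 replicate 2. SIGLEC14 shares near-identical sequence with SIGLEC5, so reads of the pair are uncertain as well.

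The signalling apparatus below the receptor changed in a few members. Of 37 genes of ITAM adaptors, partner receptors and kinases, 6 rose and 3 fell (median log2 fold change -0.07, against -0.02 for all genes tested), and with the block 7 rose and 9 fell. None of the 3 adaptor genes, TYROBP among them, was called by edgeR (2 were lower at an unadjusted p under 0.05). Among all genes tested, 7.44% were called higher and 3.70% lower. FGR, a Src family kinase of myeloid cells, was at 71.6, 70.1 and 120.3 CPM in EV and 412, 375 and 554 CPM in S14, without overlap (2.36 ± 0.31, adjusted p = 0.000149). SRC, the founding member of that family, went from 6.05, 6.77 and 6.04 to 21.4, 27.3 and 23.7 CPM, again without overlap (1.94 ± 0.37, adjusted p = 0.00269). CD300LB, an activating receptor that pairs with DAP12, rose from 8.30, 8.59 and 7.37 to 40.7, 32.0 and 52.6 CPM (2.37 ± 0.28, adjusted p = 6.55e-05). OSCAR, a collagen receptor that pairs with the Fc receptor gamma chain, was at 18.4, 19.4 and 15.0 CPM against 55.0, 60.0 and 20.5 CPM (1.36 ± 0.30, adjusted p = 0.00758), so that S14 replicate 3 lay close to the EV range. SYK itself fell by 0.72 ± 0.20 on the log2 scale (383, 398 and 298 CPM to 237, 244 and 172 CPM, adjusted p = 0.0314). FCGR1A, the high-affinity IgG receptor, fell by 0.95 ± 0.27, LILRB2, an inhibitory receptor for HLA class I, by 1.91 ± 0.51, while the adaptor LCP2 (0.75) and the phosphatase PTPN6 (0.50) rose. Leaving out 1 library at a time ended the calls of SYK (adjusted p up to 0.138 without EV replicate 1 or 2 or S14 replicate 1 or 3), FCGR1A (0.129 without EV replicate 1 or 2 or S14 replicate 3), LILRB2 (0.0952 without EV replicate 1 or 2 or S14 replicate 2 or 3), LCP2 (0.186 without EV replicate 1, 2 or 3 or S14 replicate 1 or 2) and PTPN6 (0.0588 without EV replicate 2). Without EV replicate 1 or 2, none of the list's members was called lower.

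Over all genes, 1990 of 17851 (11.1%) differed between the lines in conditioned medium, 1329 higher (7.44%) and 661 lower (3.70%) in S14. Of these, 910 and 359 changed at least 2-fold. List counts are to be read beside these shares and those with the block that follow. When the replicate number was added to the model as a block, 4207 genes were called (23.6%), 2306 higher (12.9%) and 1901 lower (10.6%). The share of called genes that were higher was 66.8% without the block and 54.8% with it, and in replicates 1 and 2 alone it was 47.6% (3725 higher, 4100 lower). All 1990 genes called without the block were also called with it in the fit over all libraries. The 2217 genes called only with it (977 higher, 1240 lower) had smaller differences, with a median absolute log2 fold change of 0.73 against 1.29. They also varied more between replicates of a line: the median SD within groups was 0.399 on the log2 scale, against 0.288 for the genes called in both fits, while the SD of the differences between same-numbered libraries was 0.290 and 0.309. The difference had the same sign in all 3 replicate pairs for 1975 of the 1990 genes (99.2%), for 2135 of the 2217 (96.3%) and for 9593 of all 17851 tested (53.7%). The libraries of the lines did not overlap in CPM for 5136 genes (28.8%), among them 1947 of the 1990. Calling from these same libraries favours a shared sign and separated values, so the shares of called genes describe their selection. The same holds for named genes said here not to overlap. Without EV replicate 1 or 2 the number called without the block was 1164 or 1173.

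**Figure D1:**
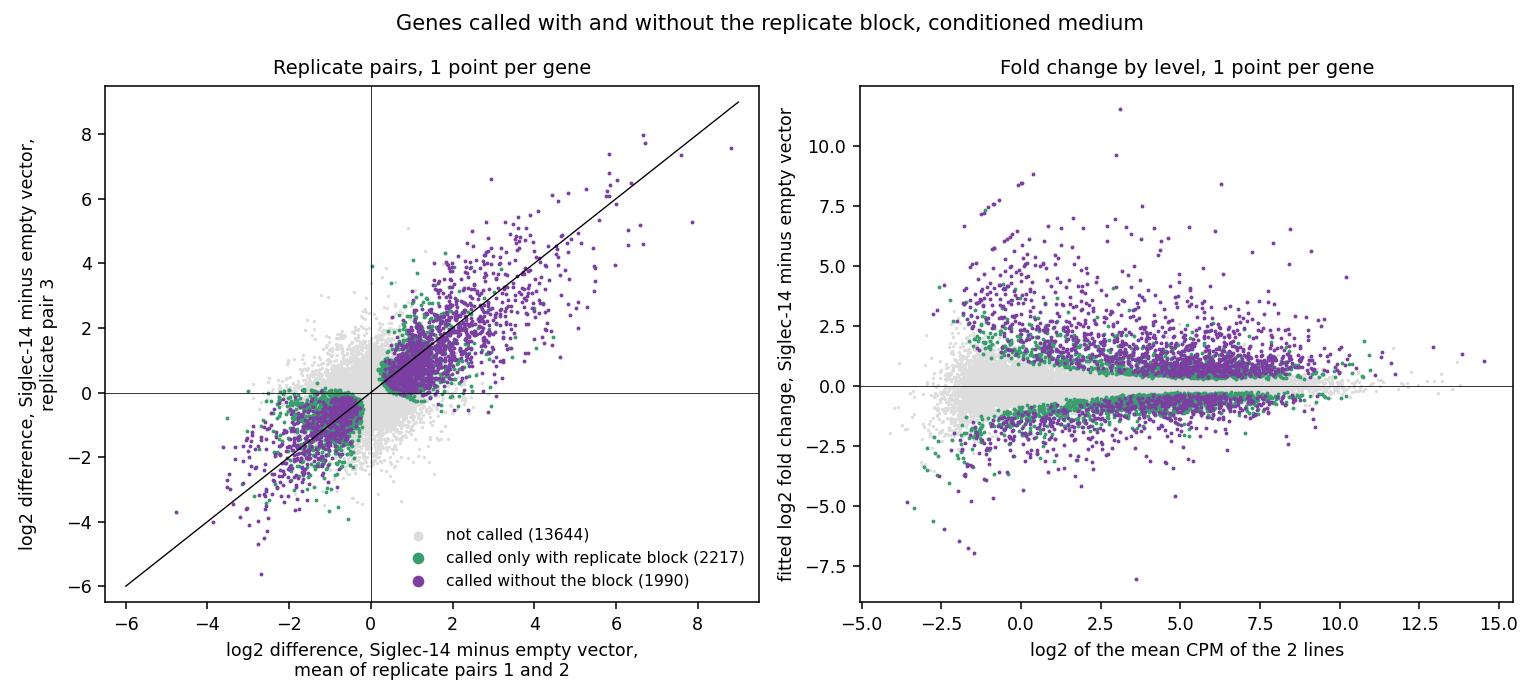
Left, the log2 difference between the S14 and EV library of replicate pair 3 (y axis) against the mean of pairs 1 and 2 (x axis), 1 point per gene, with the line of equality. Right, the fitted log2 fold change (y axis) against the log2 of the mean CPM of both lines (x axis). Purple points are the 1990 genes called without the block, green points the 2217 called only with it and grey points the rest. Green points lie on the whole nearer to 0 than purple ones and have mostly the same sign on both axes of the left panel. Calling from these same libraries favours a shared sign.

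In most of the named genes called only with the block, replicate 3 stood lower than replicates 1 and 2 in both lines. IRF7, the master regulator of type I interferon genes, was at 25.0, 22.2 and 9.66 CPM in EV and 123, 109 and 39.0 CPM in S14. Its 3 pairs all differed in the same direction, and S14 replicate 3 came nearest to the EV range (2.26 ± 0.74, adjusted p = 0.0647 without and 2.97e-06 with the block). HK2, a hexokinase of glycolysis, was at 123, 125 and 52.2 CPM against 443, 474 and 148 CPM (1.83 ± 0.67, adjusted p = 0.101 and 3.89e-06). VEGFA, the angiogenic growth factor, followed the same course with 171, 188 and 107 against 542, 583 and 312 CPM (1.63 ± 0.52, adjusted p = 0.0565 and 1.92e-05). PPL, a desmosomal plaque protein (4.08 ± 1.42), TMEM140 (2.09 ± 0.78) and SLC39A14, a zinc and iron transporter (1.17 ± 0.55), completed the higher genes, SLC39A14 with replicate 3 the highest library of both lines. On the lower side were KCNQ3, a voltage-gated potassium channel subunit, at 77.7, 76.4 and 14.9 against 18.0, 19.5 and 2.78 CPM (-2.07 ± 1.00, adjusted p = 0.223 and 2.63e-07), and PTAFR, the receptor for platelet-activating factor, at 93.3, 93.5 and 59.7 against 44.0, 46.5 and 15.5 CPM (-1.22 ± 0.38, adjusted p = 0.0511 and 2.82e-05). In both genes the S14 value was below the EV value in every pair. The transcription factor MEF2C (-0.81), the lysyl oxidase family member LOXL3 (-0.80), the keratin pseudogene KRT17P2 (-1.48) and the antisense transcript SLC39A13-AS1 (-0.97) were the others. Reads of KRT17P2 may come from its parent gene, and those of an antisense transcript from its partner gene. Of these genes DESeq2, which had no block, called IRF7, HK2, VEGFA, PPL, TMEM140, PTAFR, LOXL3 and SLC39A13-AS1, and the edgeR fit of the EV and S14 conditioned medium libraries alone, also without a block, called IRF7, VEGFA and SLC39A13-AS1.

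The largest rises were in genes that EV cells barely expressed. HES2 (chromosome 1, 6412418 to 6424670), a transcriptional repressor of the Hairy and enhancer of split family, had no count in any EV library and 19.1, 16.8 and 15.2 CPM in S14, so that, with 3 counts per library taken as the floor, its level was at least 127-fold higher. ATP1B4 (chromosome X, 120362085 to 120383249), a muscle member of the sodium pump beta subunit family, had 1 count in the EV libraries together and 982 in S14 (11.7, 7.98 and 28.0 CPM), a ratio of 1164 with an exact 95% interval for counting error of 208 to 46013. IGFN1 (chromosome 1, 201190825 to 201228952), an immunoglobulin-like protein of skeletal muscle, was at 0.130, 0.354 and 0.845 CPM against 141, 145 and 178 CPM (8.40 ± 0.58, adjusted p = 7.25e-07). In all of these genes every S14 library lay far above every EV library, and their selection required separated values.

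FA2H (chromosome 16, 74712955 to 74774831), a fatty acid hydroxylase, went from 0.346, 0.101 and 0 CPM to 32.1, 27.5 and 23.5 CPM (7.49 ± 1.09, adjusted p = 0.000361). SDS (chromosome 12, 113392445 to 113426301), which breaks down serine, went from 0.778, 0.960 and 0.604 to 66.3, 44.5 and 118 CPM (6.61 ± 0.71), and CRABP2 (chromosome 1, 156699606 to 156705816), which carries retinoic acid, from 1.17, 1.16 and 2.17 to 83.2, 62.4 and 254 CPM (6.46 ± 0.69). In SDS, CRABP2 and TRIM54 (chromosome 2, 27282392 to 27307439), a muscle ubiquitin ligase at 0.475, 0.0505 and 0.564 against 29.1, 19.3 and 59.1 CPM (6.56 ± 0.93), replicate 3 was the highest S14 library. TIMP4 (chromosome 3, 12153051 to 12159351), a metalloproteinase inhibitor, was at 0.0432, 0.354 and 0.201 against 23.6, 24.1 and 10.7 CPM (6.60 ± 0.69), with replicate 3 the lowest. MDGA1 (chromosome 6, 37630679 to 37699306), a neural adhesion protein, rose by 6.32 ± 0.52, and the ribosomal protein pseudogene RPLP0P2 (chromosome 11, 61615036 to 61639449), whose reads may come from its parent gene, by 6.96 ± 0.65. Of the 12 muscle markers, 2 passed the filter and 0 were called, with summed levels of 2.93 to 4.15 CPM in EV and 1.91 to 3.37 CPM in S14.

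CSF1 (chromosome 1, 109910242 to 109930992), the growth factor on which macrophages depend, was the most abundant gene of this set. It was at 2.81, 3.23 and 16.1 CPM in EV and 739, 702 and 634 CPM in S14 (6.54 ± 0.64, adjusted p = 1.14e-05). EV replicate 3 held several times the level of the other EV libraries and was still far below S14. CCR7 (chromosome 17, 40553769 to 40565472), the receptor that leads dendritic cells to lymph nodes, was at 0.130, 0.202 and 0.0403 CPM in EV and 15.1, 13.1 and 10.0 CPM in S14 (6.66 ± 0.69, adjusted p = 2.04e-05). CCR7 is also a marker of dendritic cells, and of 8 such markers tested 2 were higher (CCR7 and CD83) and 1 was lower (CLEC10A). Their summed level was 91.9 to 114 CPM in EV and 205 to 287 CPM in S14, with CLEC9A at 0 in all 6 libraries. Its part in the result was not tested.

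**Figure D2:**
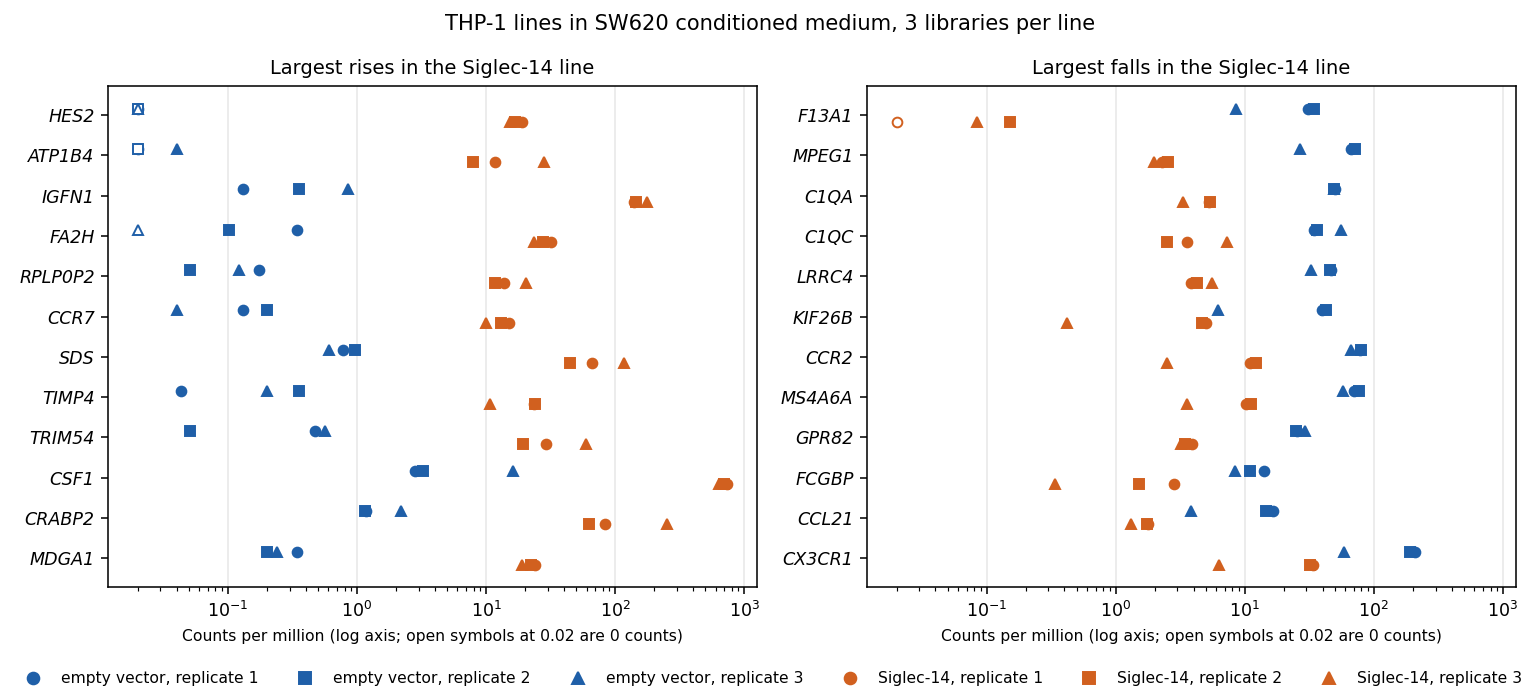
CPM per library (x axis, logarithmic) of the 12 largest rises (left) and the 12 largest falls (right) among called genes with at least 10 CPM in the higher line. Blue marks EV and orange S14, and circles, squares and triangles mark replicates 1, 2 and 3. Open symbols at the left edge stand for 0 counts. Every S14 library lies on the same side of all EV libraries, as the selection required, and replicate 3 is the lowest EV library for F13A1, MPEG1, KIF26B, CCL21 and CX3CR1, among others.

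Some of the largest falls were in genes of tissue macrophages. F13A1 (chromosome 6, 6144085 to 6321013), the factor XIII A subunit that cross-links fibrin, was at 30.7, 34.2 and 8.57 CPM in EV and 0, 0.150 and 0.0843 CPM in S14 (-8.05 ± 0.63, adjusted p = 1.69e-06). MPEG1 (chromosome 11, 59208510 to 59212951), which encodes the pore-forming perforin-2 of phagosomes, was at 66.9, 70.9 and 26.6 against 2.29, 2.56 and 1.98 CPM (-4.59 ± 0.45, adjusted p = 1.14e-05). CX3CR1 (chromosome 3, 39263494 to 39281735), the fractalkine receptor, went from 209, 189.9 and 58.2 to 33.9, 32.1 and 6.28 CPM (-2.67 ± 0.74, adjusted p = 0.0276 without and 1.4e-08 with the block). In all 3 genes replicate 3 was the lowest EV library, and in CX3CR1 it was closer to S14 replicates 1 and 2 than to the other EV libraries.

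Of 35 tested genes of resident macrophages and scavenging, 13 fell and 0 rose (median -0.57). With the block 17 fell and 5 rose. Resident markers fell in 6 of 10 cases: beside F13A1 and CX3CR1 these were the folate receptor FOLR2 (1.69, 2.17 and 1.57 to 0.369, 0.552 and 0.337 CPM, -2.09 ± 0.31), the selenium carrier SELENOP (-2.61 ± 0.61), and LYVE1, a hyaluronan receptor (-3.76), and CD4 (-0.58), both named after their values were seen. Of 11 scavenger receptors 3 fell: STAB1, which clears modified lipoproteins and matrix debris, went from 36.4, 37.4 and 50.6 to 8.26, 5.77 and 17.4 CPM (-1.98 ± 0.41, adjusted p = 0.00538), the mannose receptor MRC1 fell from about 1 CPM (-2.21 ± 0.53), and so did the lectin CLEC10A (-2.48, named after its value was seen). Of 7 genes for engulfing dying cells 2 fell. GPR34, a lysophosphatidylserine receptor, went from 5.83, 4.75 and 10.3 to 0.295, 0.251 and 0.548 CPM (-4.20 ± 0.54). GAS6, the bridging ligand that lets macrophages engulf dying cells, was at 64.0, 59.3 and 26.4 against 12.6, 17.5 and 6.45 CPM (-2.04 ± 0.51, adjusted p = 0.0153), and every pair showed the fall. Among effectors, beside MPEG1, LYZ, lysozyme, went from 438, 538 and 695 to 97.5, 112 and 102 CPM (-2.42 ± 0.62, adjusted p = 0.0176), with no overlap although EV libraries differed among themselves. The number lower was 7 without S14 replicate 2 and 8 without S14 replicate 1 or EV replicate 2. Single omissions ended the calls of CX3CR1 (adjusted p up to 0.102 without EV replicate 1 or 2 or S14 replicate 1, 2 or 3), LYZ (0.0685 without S14 replicate 1, 2 or 3), GAS6 (0.0696 without EV replicate 1 or 2 or S14 replicate 1 or 3), MRC1 (0.063 without S14 replicate 2, with a log2 fold change of -3.45 without S14 replicate 3) and SELENOP (0.0535 without EV replicate 2). Of the monocyte and macrophage markers, 2 were called lower, LYZ and AIF1. Markers not called without the block also entered the fall of the summed level given above. CSF1R was at 1552, 1505 and 1426 CPM in EV and 974, 1010 and 1213 CPM in S14. CD14 was at 618, 612 and 999 against 465, 477 and 387 CPM. Estimates of ITGAM, SPI1, CTSS and CD68 were above 0, CD68 from a level below 1 CPM. The part of the lower summed level in the result was not tested.

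Complement genes were called in both directions. The 3 chains of C1q, which starts the classical pathway, all fell: C1QA (chromosome 1, 22636506 to 22639608) from 49.9, 48.8 and 49.2 to 5.24, 5.37 and 3.29 CPM (-3.42 ± 0.39), C1QB from 6.39, 6.01 and 9.82 to 0.590, 1.05 and 1.86 CPM (-2.62 ± 0.44) and C1QC (chromosome 1, 22643630 to 22648110) from 34.4, 36.4 and 55.9 to 3.54, 2.51 and 7.21 CPM (-3.24 ± 0.38). No library of one line overlapped the other for any chain, which also held for 28.8% of all genes tested. CFP, properdin, fell from 1.56, 1.52 and 0.886 to 0.295, 0.502 and 0.295 CPM (-1.83 ± 0.36, adjusted p = 0.0034). By contrast C3, the central component, was at 534, 526 and 632 against 946, 1069 and 667 CPM (0.67 ± 0.16, adjusted p = 0.0147), and CD55, which shields cells from complement, at 20.7, 22.1 and 39.7 against 100.0, 110.3 and 96.2 CPM (1.89 ± 0.33, adjusted p = 0.00159). In all, 3 of 23 tested members rose and 4 fell, the third rise being ITGAX. Over all genes tested the shares were 7.44% and 3.70%. Without EV replicate 1 or 2, or S14 replicate 1 or 2, CD55 was the 1 member called higher, with adjusted p values of up to 0.0841 without EV replicate 1 or 2 or S14 replicate 1 or 2 for C3 and 0.168 without EV replicate 1, 2 or 3 or S14 replicate 1 or 2 for ITGAX.

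Other large falls concerned receptors and secreted proteins. CCR2 (chromosome 3, 46353734 to 46360928), which draws monocytes out of the bone marrow, was at 78.0, 79.4 and 66.9 CPM in EV and 10.9, 12.2 and 2.49 CPM in S14 (-3.14 ± 0.65, adjusted p = 0.00518). MS4A6A (chromosome 11, 60172014 to 60184666), a four-span membrane protein of monocytes, went from 70.5, 75.9 and 57.2 to 10.2, 11.2 and 3.54 CPM (-3.04 ± 0.51), and in both genes S14 replicate 3 was the lowest library. LRRC4 (chromosome 7, 128027071 to 128032107), a synaptic adhesion protein (-3.19 ± 0.42), GPR82 (chromosome X, 41724155 to 41730135), an orphan receptor (-2.91 ± 0.41), FCGBP (chromosome 19, 39863323 to 39934626), a mucin-like secreted protein (-2.90 ± 0.48), and KIF26B (chromosome 1, 245154985 to 245709431), a kinesin family member (-3.15 ± 0.76), also fell. CCL21 (chromosome 9, 34709005 to 34710124), a ligand of CCR7, was at 16.4, 14.5 and 3.82 against 1.77, 1.76 and 1.31 CPM (-2.85 ± 0.64, adjusted p = 0.00844), opposite in direction to its receptor. KIF26B lost its call (adjusted p up to 0.0538 without EV replicate 1 or 2).

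Among abundant genes that rose were the ferritin chains, which store iron. FTL was at 15356, 14057 and 16928 CPM in EV and 29239, 32260.0 and 33182 CPM in S14 (1.03 ± 0.18, adjusted p = 0.00121), and FTH1 at 3377, 3127 and 5073 against 11013, 11651 and 12670.0 CPM (1.61 ± 0.31, adjusted p = 0.00324). Both genes were higher in every S14 library, though 62.4% of the exonic bases of FTH1 lie in gene models on the opposite strand. CHI3L1, a chitinase-like protein secreted by macrophages, was at 8851, 8714 and 7473 against 22350.0, 21166 and 18450.0 CPM (1.31 ± 0.22, adjusted p = 0.0013). LPL, lipoprotein lipase (1.38 ± 0.42), APOC1, a lipoprotein constituent (1.10 ± 0.29), the protease CTSB (1.18 ± 0.31) and the integrin ITGAX, known as CD11c (1.27 ± 0.39), were also at least 2-fold higher. These last 4 calls each failed on leaving out 1 library (adjusted p up to 0.13 without EV replicate 1, 2 or 3 or S14 replicate 1 or 2, 0.0899 without EV replicate 1, 2 or 3 or S14 replicate 1 or 2, 0.0627 without EV replicate 1, 2 or 3 or S14 replicate 1 and 0.168 without EV replicate 1, 2 or 3 or S14 replicate 1 or 2).

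Among abundant genes that fell was CYBB, the catalytic subunit of the phagocyte NADPH oxidase, at 877, 898 and 959 CPM in EV and 288, 306 and 236 CPM in S14 (-1.72 ± 0.17, adjusted p = 1.49e-05), lower in every pair. IFNGR1, the ligand-binding chain of the interferon gamma receptor, went from 946, 917 and 659 to 339, 349.7 and 262 CPM (-1.41 ± 0.30), and SAMHD1, a restriction factor that depletes nucleotides, from 629, 659.6 and 614 to 291, 287 and 330.0 CPM (-1.07 ± 0.18). The receptor CD93 (-1.11 ± 0.17) and the integrin ITGA4 (-1.21 ± 0.16) fell without overlap as well. ITM2C (-1.16 ± 0.35, adjusted p up to 0.173 without EV replicate 1 or 2 or S14 replicate 1 or 3) and NT5DC2 (-2.09 ± 0.49, adjusted p up to 0.0509 without S14 replicate 1) fell too and lost their calls, and NT5DC2 was at -3.30 without S14 replicate 3.

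Secreted ligands rose more often than they fell: of 32 cytokine and growth factor genes tested, 12 rose and 2 fell (median 1.02), and with the block 13 and 4. IL1RN, the antagonist that blocks the interleukin-1 receptor, was at 82.6, 74.6 and 135 CPM in EV and 2108, 1643 and 2929 CPM in S14 (4.51 ± 0.32, adjusted p = 8.54e-07). GDF15, a stress-induced member of the TGF-beta family, went from 10.8, 11.8 and 42.6 to 1082, 749.8 and 1395 CPM (5.63 ± 0.73, adjusted p = 0.00015). For both genes EV replicate 3 was the highest EV library and remained far below S14. LIF, an interleukin-6 family cytokine, had 3 counts in EV against 414 in S14, a ratio of 164 with an exact 95% interval for counting error of 55.6 to 796, and most of these came from S14 replicate 3 (1.99, 1.86 and 14.8 CPM). The fitted log2 fold change of LIF was 5.28 without that library and 10.06 without EV replicate 3. INHBA, the activin A subunit, was at 0.173, 0.152 and 0.201 against 6.57, 5.12 and 6.79 CPM (5.08 ± 0.85), and AREG, an EGF receptor ligand, at 0.259, 0.152 and 0.684 against 3.10, 2.21 and 6.54 CPM (3.39 ± 0.85). In the TNF superfamily TNFSF14, known as LIGHT, rose from 44.0, 41.4 and 31.8 to 291, 244 and 260.2 CPM (2.76 ± 0.23, adjusted p = 2.6e-06), TNFSF15 by 2.92 ± 0.55 and the 4-1BB ligand TNFSF9 by 1.16 ± 0.20. TNFSF13, known as APRIL, fell by 1.00 ± 0.25, though 55.5% of its exonic bases belong to another gene model on the same strand, and LTB, lymphotoxin beta, by 1.06 (named after its value was seen). TGFB1 rose by 0.83 ± 0.17, CLCF1 by 1.81 ± 0.51 and IL1A, also named after its value was seen, by 3.04. The calls of AREG, CLCF1 and TNFSF13 were lost with 1 library left out (adjusted p up to 0.0801 without EV replicate 1 or 2 or S14 replicate 3, 0.185 without EV replicate 1 or 2 or S14 replicate 3 and 0.0797 without EV replicate 1 or 2 or S14 replicate 2), and CLCF1 was at 0.98 without S14 replicate 3, 0 members were called lower without EV replicate 1 or 2 or S14 replicate 2, and 1 without S14 replicate 1.

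Among the listed chemokines those called rose, while the receptors went both ways. CCL20, which attracts CCR6-bearing cells, was at 3.20, 3.13 and 14.7 CPM against 54.1, 68.4 and 97.9 CPM (3.39 ± 0.83, adjusted p = 0.0143), CCL5 at 222, 193 and 228 against 452, 466 and 359 CPM (0.99 ± 0.23) and the transmembrane chemokine CXCL16 at 25.7, 25.3 and 14.1 against 100.2, 90.9 and 66.6 CPM (1.99 ± 0.61). These 3 of the 15 listed chemokines tested rose and 0 fell, and with the block 5 rose and 1 fell. CCL21, which fell as described above, was not on that list. The number called was 1 without EV replicate 1, 0 without EV replicate 2 and 5 without EV replicate 3, with adjusted p for the 3 genes up to 0.0791 without EV replicate 1 or 2, 0.0501 without EV replicate 2 and 0.138 without EV replicate 1, 2 or 3 or S14 replicate 1, 2 or 3. Of 10 chemokine receptors, 3 rose (CCR7, CXCR5 and CCRL2) and 4 fell, among them CCR2, CX3CR1 and CXCR2. CCRL2, which presents chemerin, went from 18.9, 17.5 and 17.0 to 59.6, 55.8 and 32.0 CPM (1.46 ± 0.33), and CXCR2, the receptor for interleukin-8, from 21.9, 21.4 and 15.1 to 5.76, 5.12 and 4.60 CPM (-1.92 ± 0.31), both without overlap. CXCR5 rose by 2.40 ± 0.46, but 88.6% of its exonic bases lie in gene models on the opposite strand. Without S14 replicate 1 or 3, 2 receptors were called lower.

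Interferon response genes were higher in S14: 24 of 53 tested rose and 1 fell, with a median of 0.66, and with the block 31 rose and 2 fell. The medians of the 3 replicate pairs were 0.75, 0.73 and 0.47. Interferon binds its receptor and drives a complex that holds STAT2 and IRF9 to a short DNA element, the interferon-stimulated response element (ISRE), in the promoters of antiviral genes. No interferon gene (IFNA1, IFNB1, IFNG or IFNL1) passed the filter. Among signalling genes, USP18, which restrains the receptor, went from 3.93, 5.45 and 2.98 to 8.93, 9.08 and 8.77 CPM (1.12 ± 0.23), while IRF1 rose by 0.59 ± 0.15 and IRF9 by 0.94 ± 0.27. The lines did not overlap for any of these 3 genes, named by smallest p, nor for 28.8% of all genes tested. IRF1 and IRF9 lost their calls with 1 library left out (adjusted p up to 0.0768 without EV replicate 1 or 2 and 0.155 without EV replicate 1, 2 or 3 or S14 replicate 1 or 2), and IRF9 also with upper-quartile scaling (adjusted p = 0.0544).

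Of 37 effectors, 19 rose and 0 fell. OAS2, an enzyme whose product activates RNase L, was at 19.8, 21.6 and 20.3 CPM in EV and 78.1, 59.1 and 59.1 CPM in S14 (1.67 ± 0.18, adjusted p = 2.96e-05). LY6E, a membrane protein that blocks viral entry, was at 31.4, 33.3 and 19.9 against 142, 109 and 129 CPM (2.17 ± 0.29, adjusted p = 0.00016). EPSTI1 (3.24, 2.83 and 3.42 to 17.5, 13.6 and 13.4 CPM, 2.22 ± 0.29, adjusted p = 0.000149) and the translation inhibitor IFIT3 (3.41, 4.55 and 4.99 to 14.1, 11.3 and 19.1 CPM, 1.78 ± 0.25, adjusted p = 0.000235) rose as well. In each of these 4 genes, named by smallest p, all S14 libraries exceeded all EV libraries, which that choice favours. The libraries did not overlap for 28.8% of all genes tested. MX1 (2.25), IFIT1 (1.91), ISG15 (1.18) and OAS3 (1.11), named after their values were seen, were among the others that rose. The sensors of foreign nucleic acid went both ways: IFIH1, which detects double-stranded RNA, rose from 21.3, 19.9 and 26.5 to 34.6, 38.0 and 42.6 CPM (0.76 ± 0.15), and STING1, the adaptor of DNA sensing, fell from 99.5, 94.5 and 82.3 to 41.3, 37.1 and 39.0 CPM (-1.23 ± 0.24, adjusted p = 0.00316).

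The promoters of the interferon list were searched for the ISRE, spelled GAAA, any 2 bases and GAAA, on both strands, in windows from 250 bases before to 50 after the RefSeq start (GRCh38.p14). It was found in 22 of the 37 tested members with an entry (59.5%) and in 13 of the 16 of these called higher (81.2%), against 3.57% of all 35116 promoters in the table and 3.03% of the 12002 that belong to tested genes. The table is not complete, and the list was drawn from genes known to answer interferon, so the share describes the list. The promoters of the 2 called members with the smallest p that held the motif are shown, with its letters in capitals (as their reverse complement where the element lies on the other strand), as examples of where the element sits.
EPSTI1 (chr13:42992192-42992491, minus strand): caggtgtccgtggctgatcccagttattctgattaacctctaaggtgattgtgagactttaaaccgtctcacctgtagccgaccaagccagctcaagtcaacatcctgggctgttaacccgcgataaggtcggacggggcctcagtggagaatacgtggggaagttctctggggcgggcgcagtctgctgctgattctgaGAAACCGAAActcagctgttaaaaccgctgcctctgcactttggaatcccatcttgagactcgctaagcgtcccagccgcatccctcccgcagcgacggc
IFIT3 (chr10:89327747-89328046, plus strand): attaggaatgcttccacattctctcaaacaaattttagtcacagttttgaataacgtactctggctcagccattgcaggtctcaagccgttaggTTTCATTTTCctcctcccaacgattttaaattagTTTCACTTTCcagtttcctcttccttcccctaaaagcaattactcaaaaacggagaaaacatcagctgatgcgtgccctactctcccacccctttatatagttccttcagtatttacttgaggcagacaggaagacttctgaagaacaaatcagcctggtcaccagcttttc
EPSTI1 holds 1 match that begins at position -50 from the start, and IFIT3 holds 2, at -156 and -122. None of these matches overlaps one of the other 3 motifs searched.

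MHC class I genes, which present peptides to T cells and answer interferon, were listed with genes of peptide loading. Of these 16 genes 6 rose and 0 fell (median 0.38). By role, 5 of 6 class I genes rose (median 0.52) and 1 of 10 loading genes (median 0.28). HLA-F went from 15.2, 13.9 and 16.7 to 45.6, 48.6 and 59.3 CPM (1.74 ± 0.23, adjusted p = 0.000164), and HLA-B (0.54 ± 0.12) and the light chain B2M (0.49 ± 0.13) by less. TAP1, which pumps peptides into the endoplasmic reticulum, rose by 0.82 ± 0.21. Class I genes resemble each other closely, so reads may have been assigned to the wrong member. B2M and TAP1 lost their calls with 1 library left out (adjusted p up to 0.109 without EV replicate 1 or 2 or S14 replicate 1 or 3 and 0.0908 without EV replicate 1 or 2 or S14 replicate 3), and 3 members were called without EV replicate 2. Of 9 MHC class II genes, 0 were called by edgeR over all libraries with or without the block, at an unadjusted p under 0.05 without it, or by DESeq2. A blocked fit of the EV and S14 conditioned medium libraries alone called HLA-DRB5 lower (adjusted p = 0.0370). Replicates 1 and 2 alone called 1 class II gene higher and 3 lower of 8 tested, against 3725 higher and 4100 lower of all 17829 genes tested there. HLA-DRB1 was at 85.5, 82.0 and 97.8 against 71.1, 67.0 and 72.8 CPM (-0.33 ± 0.19, adjusted p = 0.317).

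The list of stress response and amino acid supply genes (the integrated stress response) had the highest median of the lists examined. In this pathway, shortage of amino acids or other stress slows general translation and lets the factor ATF4 induce transporters, synthetic enzymes and tRNA synthetases. All 40 members had estimates above 0, 20 rose and 0 fell (median 1.19), and with the block 28 rose. The pairs were not alike: the median difference was 1.57 and 1.38 in pairs 1 and 2 and 0.27 in pair 3. Leaving out S14 replicate 3 raised the number called to 33, and leaving out EV replicate 1, EV replicate 3, S14 replicate 1 or S14 replicate 2 lowered it to 9, 12, 11 or 10.

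By role, 3 of 7 transcription factors rose. DDIT3, known as CHOP, was at 24.7, 25.5 and 29.5 CPM in EV and 153, 144 and 68.3 CPM in S14 (2.19 ± 0.27, adjusted p = 9.84e-05). ATF3, a stress-induced repressor, was at 38.5, 36.7 and 33.0 against 464, 385 and 346 CPM (3.47 ± 0.68), and CEBPB at 24.7, 26.5 and 49.3 against 129, 111 and 195 CPM (2.11 ± 0.31). In ATF3 and CEBPB, replicate 3 of S14 was well above the EV libraries too. Among 6 feedback genes, PPP1R15A, which restores translation, rose from 66.8, 65.4 and 82.8 to 231, 237 and 172 CPM (1.57 ± 0.30), SESN2, an inhibitor of mTORC1, from 19.8, 24.4 and 15.9 to 86.7, 91.5 and 28.2 CPM (1.78 ± 0.32), and TRIB3, a pseudokinase that damps ATF4, from 51.5, 66.1 and 54.9 to 212, 275 and 37.5 CPM (1.60 ± 0.49, adjusted p = 0.0478). In TRIB3 the S14 value of replicate 3 was below all EV values.

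Among the supply genes, ASNS, which makes asparagine, was at 0.994, 1.26 and 0.684 CPM in EV and 8.78, 8.73 and 0.422 CPM in S14 (2.60 ± 0.68, adjusted p = 0.0209). CTH, which makes cysteine, was at 1.08, 1.57 and 1.13 against 9.67, 12.5 and 3.04 CPM (2.74 ± 0.63), and MTHFD2, of mitochondrial folate metabolism, at 190.2, 221 and 219 against 560.1, 589 and 273 CPM (1.17 ± 0.28). ASNS was higher in S14 in pairs 1 and 2 and lower in pair 3. Of 8 transporters 4 rose: SLC3A2, the heavy chain of large neutral amino acid carriers (188, 203 and 203 to 474, 456 and 242 CPM, 0.98 ± 0.22), SLC1A5 for glutamine (0.88 ± 0.26), SLC38A2 (0.79 ± 0.20) and SLC6A9 for glycine (2.45 ± 0.70). Of 10 tRNA synthetases 7 rose, with WARS1 for tryptophan, which interferon also induces, at 113, 149 and 114 against 666, 644 and 369 CPM (2.16 ± 0.29, adjusted p = 0.000164), GARS1 (1.22 ± 0.26), SARS1 (1.17 ± 0.26) and IARS1 (1.21 ± 0.29). Leaving out 1 library ended the calls of TRIB3 (adjusted p up to 0.229 without EV replicate 1, 2 or 3 or S14 replicate 1 or 2), SLC1A5 (0.174 without EV replicate 1, 2 or 3 or S14 replicate 1 or 2), SLC6A9 (0.148 without EV replicate 1 or 3 or S14 replicate 1 or 2), SLC38A2 (0.101 without EV replicate 1, 2 or 3 or S14 replicate 1 or 2), ASNS (0.0863 without EV replicate 1, 2 or 3 or S14 replicate 1 or 2), IARS1 (0.0699 without EV replicate 1 or S14 replicate 2), MTHFD2 (0.057 without EV replicate 1 or S14 replicate 1 or 2) and CTH (0.051 without EV replicate 1). TRIB3 and SLC1A5 also lost them with upper-quartile scaling (adjusted p = 0.0537 and 0.0503).

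In mock medium, 6 members of this list rose and 0 fell (median 0.09), with pair medians of 0.33, 0.20 and 0.16. In a fit of all 18 libraries none of the 40 genes had a difference between the media that passed the test. In replicates 1 and 2 alone all 40 rose in conditioned medium, against 3725 higher and 4100 lower of all 17829 genes tested there. In that fit the difference between the media was called in 35 of the 40 genes (32 larger and 3 smaller in conditioned medium). That was 87.5% of the list, against 24.3% of all genes tested there. The fit left out replicate 3, so its p-values measure only the spread between replicates 1 and 2, the libraries closest to each other. The list was chosen with earlier results of these data known, so a difference between the media is not shown by these shares. Replicate 3 also differed from the others in the share of mitochondrially encoded mRNA, given above, and in the level of many genes in both lines. Their part in the result was not tested.

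**Figure D3:**
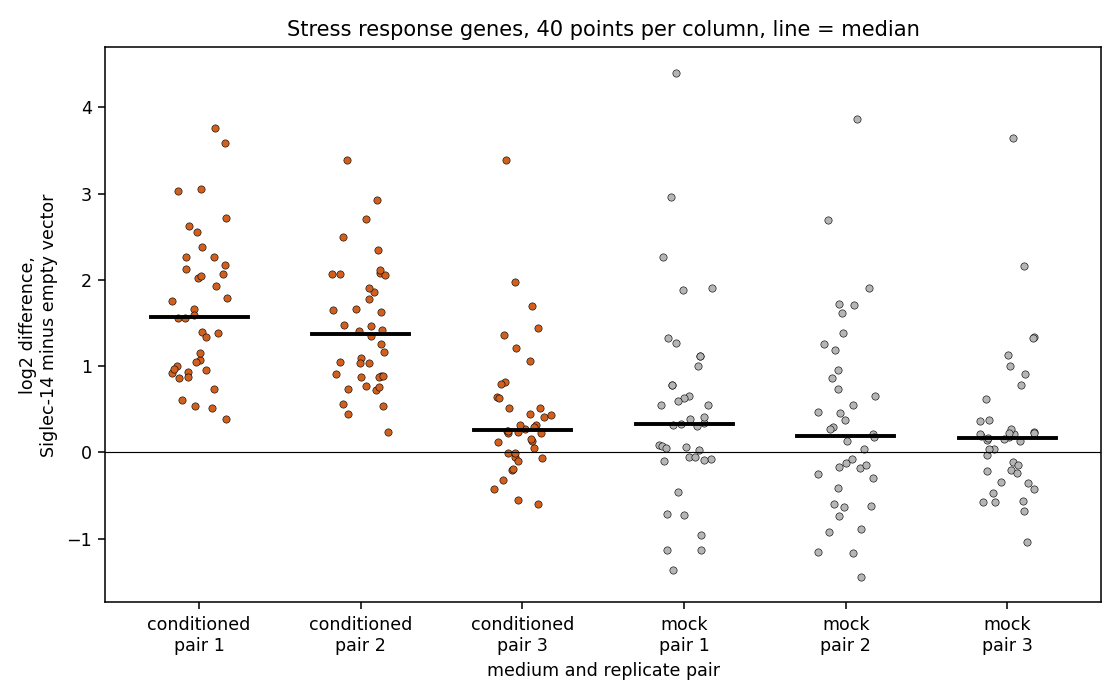
Log2 difference in CPM between the S14 and EV library of the same replicate number (y axis) for the 40 genes of the stress response list, in conditioned and mock medium (x axis, 3 pairs each), with the median as a line. Conditioned medium pairs 1 and 2 have medians of 1.57 and 1.38, and the other 4 columns have medians of 0.16 to 0.33.

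The element bound by C/EBP and ATF dimers, spelled TGATGNAA, was found on either strand in the promoters of 10 of 33 members of the stress response list with an entry (30.3%) and in 5 of 19 of these called higher (26.3%), against 3.62% of all promoters and 1.82% of those of tested genes. The list was drawn from genes of this pathway, so the share describes the list. The 2 called members with the smallest p whose promoter held the element are printed with the match in capitals.
ATF3 (chr1:212565157-212565456, plus strand): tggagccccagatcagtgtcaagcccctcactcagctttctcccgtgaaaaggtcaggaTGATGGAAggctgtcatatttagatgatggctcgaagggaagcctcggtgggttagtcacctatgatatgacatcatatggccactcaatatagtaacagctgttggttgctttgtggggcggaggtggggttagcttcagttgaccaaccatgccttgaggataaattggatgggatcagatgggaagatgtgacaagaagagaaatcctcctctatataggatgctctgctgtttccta
SLC3A2 (chr11:62881449-62881748, plus strand): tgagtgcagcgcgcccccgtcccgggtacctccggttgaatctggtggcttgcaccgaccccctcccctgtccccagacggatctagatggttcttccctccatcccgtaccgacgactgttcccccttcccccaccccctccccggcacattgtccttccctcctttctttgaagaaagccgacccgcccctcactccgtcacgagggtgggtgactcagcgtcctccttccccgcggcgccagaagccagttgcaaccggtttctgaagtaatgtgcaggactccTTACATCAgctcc
The match in ATF3 begins at position -191 and that in SLC3A2 at position 38 after the start. A match describes the letters of the window and is not a binding site.

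Of 34 immediate early and feedback genes that answer growth factor and ERK signalling, 15 rose and 1 fell (median 1.15, with the block 23 and 2). Feedback genes, which switch ERK signalling off again, rose in 8 of 11 cases. DUSP5, a phosphatase for nuclear ERK, was at 2.55, 1.67 and 2.94 CPM in EV and 15.8, 14.2 and 39.3 CPM in S14 (3.27 ± 0.38, adjusted p = 6.01e-05). DUSP4 rose by 1.76 ± 0.28, and the receptor kinase inhibitors SPRY1 and SPRED2 by 3.86 ± 0.69 and 0.63 ± 0.13. Among transcription factors, EGR1 was at 6.96, 8.99 and 4.19 against 51.3, 54.3 and 25.7 CPM (2.71 ± 0.40, adjusted p = 0.000425), JUNB at 49.7, 47.1 and 64.6 against 115, 126 and 142 CPM (1.25 ± 0.19) and NR4A3, an orphan nuclear receptor, at 0.821, 1.46 and 0.403 against 44.1, 60.4 and 11.1 CPM (5.44 ± 1.16). No library overlapped for any of these genes, although the level of NR4A3 in S14 replicate 3 was well below that of replicates 1 and 2. Naming by smallest p favours such separation, which 28.8% of all genes tested showed. ETV5, an ETS factor, was the 1 member that fell (146, 129 and 148 to 89.4, 90.6 and 65.2 CPM, -0.79 ± 0.15). The AP-1 site TGANTCA was present in 8.78% of the promoters of all genes called higher and 6.98% of those called lower. It was in 4.72% of those of tested genes, 7.71% of all promoters and 1 of 24 promoters of this list (4.17%).

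Of 21 NF-kB subunits and targets, 5 rose and 0 fell (median 0.56). NFKB2, the p100 subunit, was at 42.7, 41.7 and 69.5 against 96.9, 107 and 160.1 CPM (1.24 ± 0.24, adjusted p = 0.00284) and the survival factor BCL2A1 at 26.1, 23.8 and 60.4 against 181, 154 and 169 CPM (2.19 ± 0.40, adjusted p = 0.00217). The costimulatory receptor CD40 (0.92 ± 0.21), the maturation marker CD83 (2.16 ± 0.51) and BIRC3 (1.86 ± 0.56, adjusted p up to 0.199 without EV replicate 1 or 2 or S14 replicate 3, and 1.15 without S14 replicate 3) were the others. With the block 8 rose and 1 fell. None of the 7 inhibitors was called by edgeR without the block (2 at an unadjusted p under 0.05), and 1 was called lower with it. The kB site, spelled GGGA, any base and TTTCC, was in the promoters of 5 of 17 list members (29.4%). It was in 0 of 4 of those called and in 0.558% of all promoters. The list was drawn from NF-kB subunits and targets, so the share describes the list. Without EV replicate 3, 8 members were called.

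Matrix and coagulation genes rose in 11 of 36 cases and fell in 2 (median 0.98), and with the block 15 rose and 6 fell. F3, tissue factor, which starts coagulation, was at 2.72, 3.33 and 7.89 CPM in EV and 75.9, 80.2 and 65.4 CPM in S14 (3.98 ± 0.37, adjusted p = 7.4e-06). Its inhibitor TFPI rose too (2.12 ± 0.46), as did TFPI2 (4.62, named after its value was seen) and PLAUR, the urokinase receptor (154, 145 and 241 to 603, 571 and 565 CPM, 1.69 ± 0.28). SERPINE2, a serpin that restrains plasminogen activation, was at 4.02, 5.20 and 11.6 against 70.9, 81.0 and 59.5 CPM (3.34 ± 0.44). Of 13 metalloproteinases, MMP19 (37.5, 34.8 and 37.6 to 254, 213 and 245 CPM, 2.69 ± 0.34) and MMP7 (0.907, 1.21 and 16.1 to 36.7, 27.8 and 402 CPM, 4.66 ± 1.20) rose and ADAMTS4 fell (-1.80 ± 0.55). MMP7 and the metalloproteinase inhibitor TIMP3 (26.4, 23.7 and 28.9 to 159.8, 123 and 925 CPM, 3.94 ± 0.60) were several times higher in S14 replicate 3 than in the other S14 libraries, and MMP7 was highest in replicate 3 of EV as well. Without S14 replicate 3 the difference was 2.42 in TIMP3 and 2.39 in MMP7, and without EV replicate 3 it was 7.20 in MMP7. Without EV replicate 2 it was -1.11 in ADAMTS4. The collagen VI chains COL6A1 (1.29 ± 0.24) and COL6A2 (1.55 ± 0.23) rose together. MMP7 and ADAMTS4 lost their calls with 1 library left out (adjusted p up to 0.13 without EV replicate 1 or 2 or S14 replicate 3 and 0.277 without EV replicate 1 or 2 or S14 replicate 1, 2 or 3), and 1 member was called lower without EV replicate 1 or 2 or any single S14 library.

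Of 17 integrins, 7 rose and 2 fell. ITGB3, the beta chain of the vitronectin receptor, was at 0.302, 0.707 and 1.13 CPM in EV and 24.9, 25.0 and 18.6 CPM in S14 (4.98 ± 0.51, adjusted p = 1.66e-05), although 51.6% of its exonic bases belong to another gene model on the same strand. ITGA5, of the fibronectin receptor, was at 316, 304 and 473 against 1001, 953 and 1276 CPM (1.56 ± 0.18) and ITGA3, of a laminin receptor, at 46.4, 47.0 and 51.9 against 355, 350.2 and 184 CPM (2.61 ± 0.41). ITGA4, which binds VCAM-1, fell from 220.0, 233 and 232 to 106, 115 and 76.0 CPM (-1.21 ± 0.16), as did ITGAL (-0.97, named after its value was seen). Outside the integrins CD44, the hyaluronan receptor, was the 1 of 10 adhesion genes called (180.5, 176 and 295 to 592, 630.3 and 716 CPM, 1.57 ± 0.18). Together 8 members rose, and 4 without EV replicate 1 or 2 or S14 replicate 1 or 2.

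Of 18 tested T cell regulatory ligands and adenosine genes, 3 rose and 0 fell, and with the block 5 rose and 1 fell. NT5E, or CD73, which makes adenosine, was at 8.60, 7.27 and 18.4 CPM in EV and 95.5, 112 and 128 CPM in S14 (3.29 ± 0.39, adjusted p = 6.71e-05). LGALS3, galectin-3, was at 70.9, 74.5 and 51.0 against 262, 256 and 286 CPM (2.03 ± 0.28) and CD274, the gene of PD-L1, at 0.302, 0.404 and 0.725 against 3.76, 3.01 and 4.98 CPM (3.01 ± 0.56). All 3 were higher in each S14 library, CD274 from a level below 1 CPM. Their choice by call favours this, and 28.8% of all genes tested did not overlap.

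Of 24 NRF2, iron and metallothionein genes 8 rose (median 0.62), 4 of 6 iron genes and 4 of 12 antioxidant genes. Beside the ferritins these included TFRC, the transferrin receptor (0.77 ± 0.17), and the autophagy receptor SQSTM1 (197, 175 and 256 to 391, 371 and 694 CPM, 1.21 ± 0.23). PGD (0.72), GCLC (0.71) and SLC11A2 (0.60, adjusted p up to 0.122 without EV replicate 1 or 2 or S14 replicate 1 or 2) rose as well. With the block 15 rose and 1 fell.

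Of 34 glycolysis and hypoxia genes, 8 rose and 0 fell (median 0.62), with 19 called higher under the block. The regulator PFKFB3 (29.1, 31.7 and 30.8 to 46.5, 46.9 and 47.6 CPM, 0.62 ± 0.10), the glucose transporter SLC2A1 (1.18 ± 0.28), the lactate exporter SLC16A3 (0.53 ± 0.13), PFKFB4 (1.07 ± 0.28) and ENO2 (2.93, named after its value was seen) belonged to glycolysis. NDRG1, a hypoxia-induced gene, was at 175, 174 and 109 against 775, 707 and 337 CPM (1.99 ± 0.46), EPAS1, or HIF-2 alpha, rose by 0.99 ± 0.19, and CA12, a carbonic anhydrase, went from 0.0432, 0.0505 and 0.644 to 3.62, 4.41 and 3.80 CPM (3.91 ± 0.68). Without EV replicate 3 the difference in CA12 was 6.25. In NDRG1 replicate 3 was the lowest library of both lines. Without EV replicate 2 the list had 4 called members, and SLC2A1, SLC16A3 and PFKFB4 each lost their calls with 1 library left out (adjusted p up to 0.0602 without EV replicate 2 or S14 replicate 1, 0.0754 without EV replicate 2 and 0.0963 without EV replicate 1 or 2 or S14 replicate 3). PFKFB4 was at 0.65 without S14 replicate 3.

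Lipid genes rose in 7 of 37 cases and fell in 0 (median 0.52), and with the block 12 rose and 0 fell. NR1H3, the oxysterol receptor LXR alpha, went from 67.3, 62.1 and 92.3 to 341, 315 and 457 CPM (2.33 ± 0.23, adjusted p = 1.57e-05), and PPARG, a regulator of lipid storage, from 57.2, 55.5 and 78.0 to 115, 111 and 91.8 CPM (0.73 ± 0.19). IDI1 (0.65 ± 0.16) and INSIG1 (0.85 ± 0.25), of sterol synthesis and its control, had S14 replicate 3 values within or just above the EV range. Beside NR1H3 and FA2H, the other 5 calls were each lost with 1 library left out (adjusted p up to 0.0869 without EV replicate 1 or 2 or S14 replicate 1 or 2 for PPARG, 0.0817 without EV replicate 2 or S14 replicate 1 or 2 for IDI1 and 0.146 without EV replicate 1, 2 or 3 or S14 replicate 1 or 2 for INSIG1), and the number called was 3 without EV replicate 1, 2 without EV replicate 2 or S14 replicate 1 or 2, and 14 without S14 replicate 3. The pair medians of this list were 0.44, 0.72 and -0.04.

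Of 21 lysosomal genes, 5 rose and 0 fell (median 0.68). CSTB, cystatin B, which inhibits cathepsins, was at 201, 188 and 217 CPM in EV and 1252, 1130.1 and 1059.9 CPM in S14 (2.51 ± 0.20, adjusted p = 2.29e-06). The tetraspanin CD63 went from 478, 428 and 482 to 976, 870.1 and 1380.2 CPM (1.22 ± 0.23), and among the cathepsins CTSD rose by 0.72 ± 0.18, CTSK by 1.68 ± 0.43 and CTSB as given above. CTSD and CTSK lost their calls with 1 library left out (adjusted p up to 0.0886 without EV replicate 1 or 2 or S14 replicate 3 and 0.0839 without EV replicate 1, 2 or 3 or S14 replicate 3), and without EV replicate 1 or 2 the list had 2 called members, and 3 without S14 replicate 3. With the block 8 rose and 3 fell.

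Transcription factors of the myeloid list rose in 9 of 30 cases and fell in 1, or 3 with the block. Beside HES2, the related repressor HES4 was at 0, 0.101 and 0.0805 against 1.70, 1.76 and 2.11 CPM (4.84 ± 0.72), and HES1 (2.51) and HEY1 (3.66), named after their values were seen, rose too. NR1H3, CEBPB and PPARG are described above. CEBPD fell by 0.81 (named after its value was seen). Immature myeloid genes fell in 3 of 19 cases and rose in 0 (median -0.62): MYB, a progenitor factor, went from 47.8, 51.4 and 73.5 to 9.52, 10.6 and 9.53 CPM (-2.54 ± 0.62), and the granule ribonucleases RNASE3 and RNASE2 fell by 1.68 ± 0.33 and 0.92 ± 0.27. RNASE2 and MYB lost their calls with 1 library left out (adjusted p up to 0.134 without EV replicate 1, 2 or 3 or S14 replicate 1, 2 or 3 and 0.0525 without S14 replicate 1), and without S14 replicate 1 the list had 1 called member.

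Cell cycle genes had the lowest median of the lists, -0.70, but with 3 members higher and 1 lower of 47, and with the block 3 higher and 14 lower. Over all genes tested the shares were 7.44% higher and 3.70% lower, and with the block 12.9% and 10.6%. The counts without the block were thus no larger than those shares. All 34 replication and mitosis genes had estimates below 0 and none was called without the block (0 at an unadjusted p under 0.05), against 11 lower with it. The pair medians of the list were -1.20, -1.29 and -0.14. In replicates 1 and 2 alone 39 members were lower and 5 higher, against 4100 lower and 3725 higher of all 17829 genes tested there. The 3 that rose act in G1: CCND1, cyclin D1, at 83.7, 82.3 and 95 against 335, 314 and 479 CPM (2.11 ± 0.34, adjusted p = 0.000862), CDKN1A, the inhibitor p21, at 491, 438 and 642 against 1172, 1034 and 963 CPM (1.01 ± 0.23) and CCND2 (1.45 ± 0.41). RB1 fell by 0.49 ± 0.13. CCND2, RB1 and CDKN1A lost their calls with 1 library left out (adjusted p up to 0.11 without EV replicate 1 or 3 or S14 replicate 1 or 2, 0.134 without EV replicate 3 or S14 replicate 1 or 3 and 0.0529 without EV replicate 2). Without EV replicate 3 or S14 replicate 1, 0 members were called lower, and 2 without S14 replicate 3. Of 15 p53 targets, 5 rose and 1 fell (2 with the block), with PLK3, a stress kinase, at 26.7, 22.3 and 41.3 against 154, 129 and 268 CPM (2.61 ± 0.34, adjusted p = 0.00015), BBC3, or PUMA, up by 1.48 ± 0.36 and GADD45B by 0.84 ± 0.21. TNFRSF10B (0.70) rose and SESN1 (-1.28) fell, both named after their values were seen. GADD45B was at 0.54 without S14 replicate 2. BBC3 and GADD45B lost their calls with 1 library left out (adjusted p up to 0.0786 without EV replicate 1 or 3 or S14 replicate 1 or 2 and 0.108 without EV replicate 1, 2 or 3 or S14 replicate 2), and without EV replicate 1 or 2 or S14 replicate 2 the list had 2 members higher, and 3 without EV replicate 3. Without EV replicate 1 or 2 or any single S14 library, 0 were called lower.

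**Figure D4:**
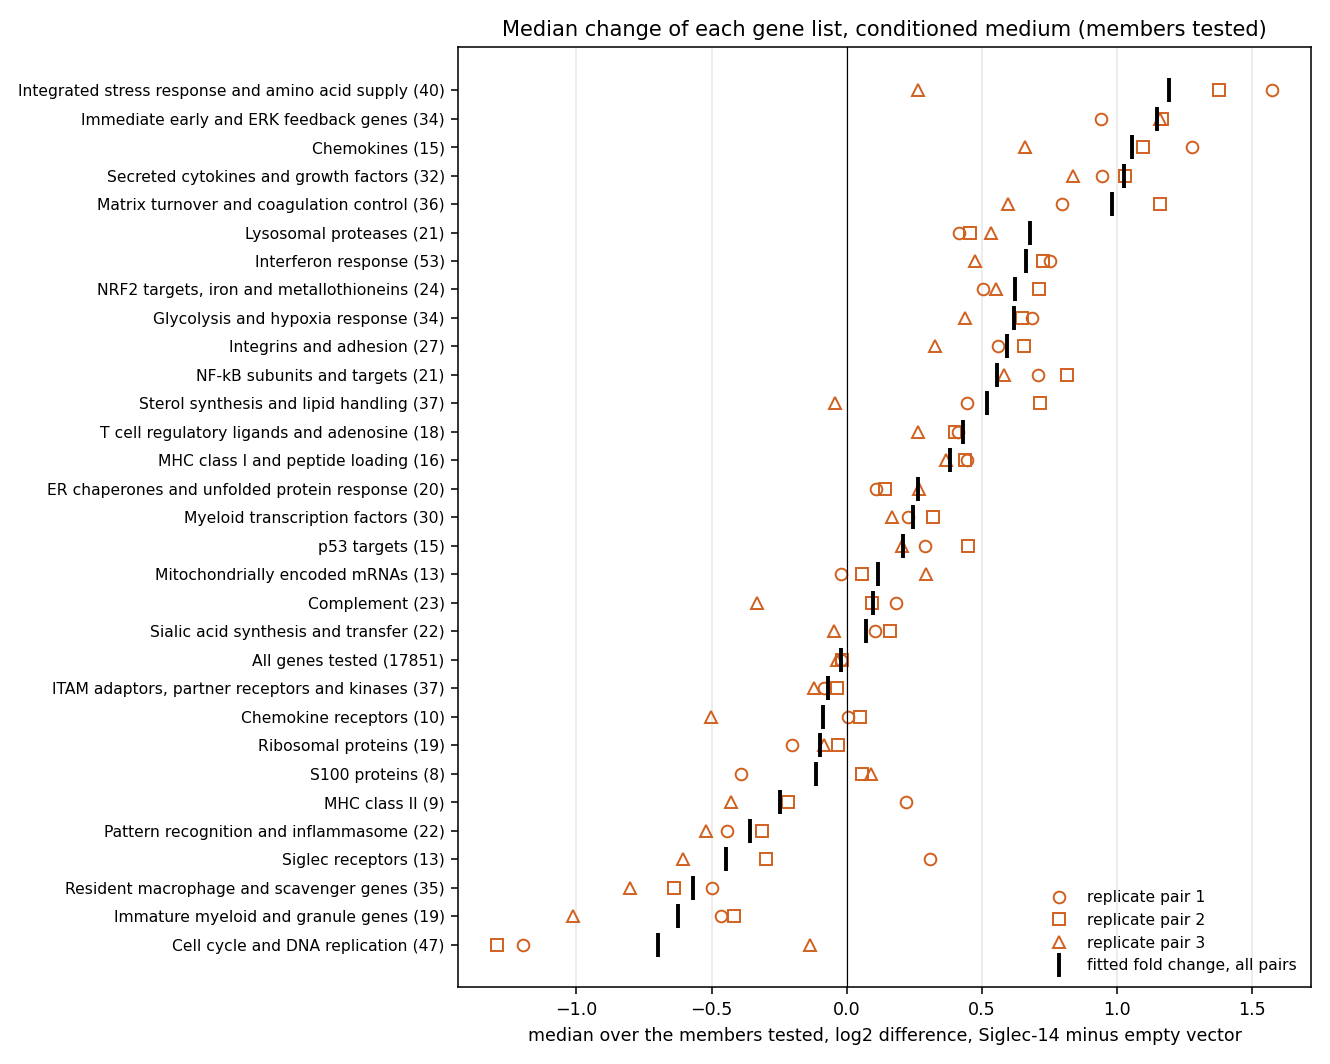
Median log2 difference, S14 over EV with conditioned medium (x axis), for each gene list (y axis, members tested in brackets). Open symbols give the medians of the 3 replicate pairs from CPM, and black bars the median of the fitted fold changes. The stress response and cell cycle lists differ most between pair 3 and the other pairs, while all genes tested have medians of -0.02, -0.02 and -0.04.

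Of 22 receptors and effectors of innate sensing, 5 fell and 1 rose, and with the block 8 fell and 1 rose. Over all genes tested 3.70% fell and 7.44% rose, and with the block 10.6% and 12.9%. TLR7 and TLR8, which detect single-stranded RNA in endosomes, went from 32.5, 38.9 and 21.8 to 12.0, 12.9 and 2.95 CPM (-1.75 ± 0.45) and from 26.7, 27.6 and 23.7 to 10.6, 13.5 and 4.09 CPM (-1.48 ± 0.35). In both genes S14 replicate 3 was the lowest library. CASP1, the interleukin-1-converting protease, was at 84.4, 84.4 and 74.7 against 43.4, 44.5 and 30.5 CPM (-1.04 ± 0.13, adjusted p = 0.000118), and CASP5 (-1.78) and the flagellin sensor NAIP (-1.88) fell from low levels. The adaptor TICAM1, known as TRIF, rose by 0.73 ± 0.13. TLR7, CASP5 and NAIP lost their calls with 1 library left out (adjusted p up to 0.081 without EV replicate 1 or 2, 0.146 without EV replicate 1, 2 or 3 or S14 replicate 1, 2 or 3 and 0.0524 without EV replicate 2), and 3 and 2 members were lower without EV replicates 1 and 2. A fit of the EV and S14 conditioned medium libraries alone called 1 member lower.

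Of 8 S100 genes, 2 rose and 0 fell, and with the block 4 rose and 4 fell. For this and the next lists, the shares over all genes tested were 7.44% higher and 3.70% lower, and with the block 12.9% and 10.6%. S100A11 was at 388, 376 and 415 against 887, 801 and 1128 CPM (1.26 ± 0.18, adjusted p = 0.000291), and S100P at 0.130, 0.354 and 0.282 against 6.86, 8.73 and 0.717 CPM (4.39 ± 1.06, adjusted p = 0.0125), with S14 replicate 3 close to EV and its call lost (adjusted p = 0.0703 without EV replicate 1). Among genes that make, transfer or remove sialic acid, the ligand of Siglecs, 4 of 22 rose and 0 fell (median 0.07), and with the block 5 rose and 1 fell. ST6GALNAC4, a sialyltransferase for O-glycans, went from 29.9, 25.9 and 34.9 to 69.1, 67.8 and 118 CPM (1.49 ± 0.26, adjusted p = 0.00155). ST6GALNAC6 (1.59), ST6GALNAC3 (2.69) and the lysosomal sialidase NEU1 (0.44) were called and lost their calls with 1 library left out (adjusted p up to 0.0836 without EV replicate 1 or 2, 0.114 without EV replicate 1, 2 or 3 or S14 replicate 1 or 2 and 0.0818 without EV replicate 2 or S14 replicate 1), and the number called was 2 without EV or S14 replicate 1 and 1 without EV replicate 2. Of 20 endoplasmic reticulum genes, DNAJB9 (0.96 ± 0.14) and XBP1 (0.85 ± 0.24, adjusted p up to 0.125 without EV replicate 1, 2 or 3 or S14 replicate 1 or 2) rose, 1 of them alone without any library but S14 replicate 3, without which 4 rose. By edgeR 0 of 19 ribosomal protein genes and 0 of 13 mitochondrially encoded mRNAs were called, with medians of -0.10 and 0.12 (0 also at an unadjusted p under 0.05 and by DESeq2).

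To see which of these differences were also present without tumour medium, the same lines were compared in mock medium, with 3 other libraries each. There 3575 genes were called (20.0%), 1976 higher (11.1%) and 1599 lower (8.96%). The share higher was 55.3%, and 44.3% with upper-quartile scaling, under which the median over all genes shifted from -0.02 to -0.12. Of the 1990 genes called in conditioned medium, 1584 (79.6%) were called in the same direction in mock medium, which is 44.3% of the mock calls, and 0 in the opposite direction. SIGLEC14, IL1RN, CSF1, F13A1 and CYBB were among them, with log2 fold changes in mock medium of 5.46, 4.97, 6.43, -7.48 and -2.08. The remaining 406 were called in conditioned medium only, but in none of them, nor in any other gene, did the difference between the media pass the edgeR test. For that difference 812 genes had an unadjusted p under 0.05, DESeq2 called 3 genes, and the edgeR fit with the block called 0 (1907 genes at an unadjusted p under 0.05).

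Several named genes, picked here after their values were seen, had wide gaps between the media. S100P had a fold change of -1.03 ± 1.05 in mock against 4.39 ± 1.06 in conditioned medium, ASNS of -0.56 ± 0.73 against 2.60 ± 0.68 and ST6GALNAC3 of -0.87 ± 0.81 against 2.69 ± 0.76. In each of them S14 replicate 3 lay near or below the EV level, unlike S14 replicates 1 and 2. ITGAX, at 0.37 ± 0.38 in mock and 1.27 ± 0.39 in conditioned medium, and OSCAR, at 0.14 ± 0.30 and 1.36 ± 0.30, followed. In replicates 1 and 2 alone 4328 genes had a called difference between the media, 2135 larger and 2193 smaller in conditioned medium. Without S14 conditioned medium replicate 3 alone the number was 41, and without S14 mock replicate 3 it was 107.

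**Figure D5:**
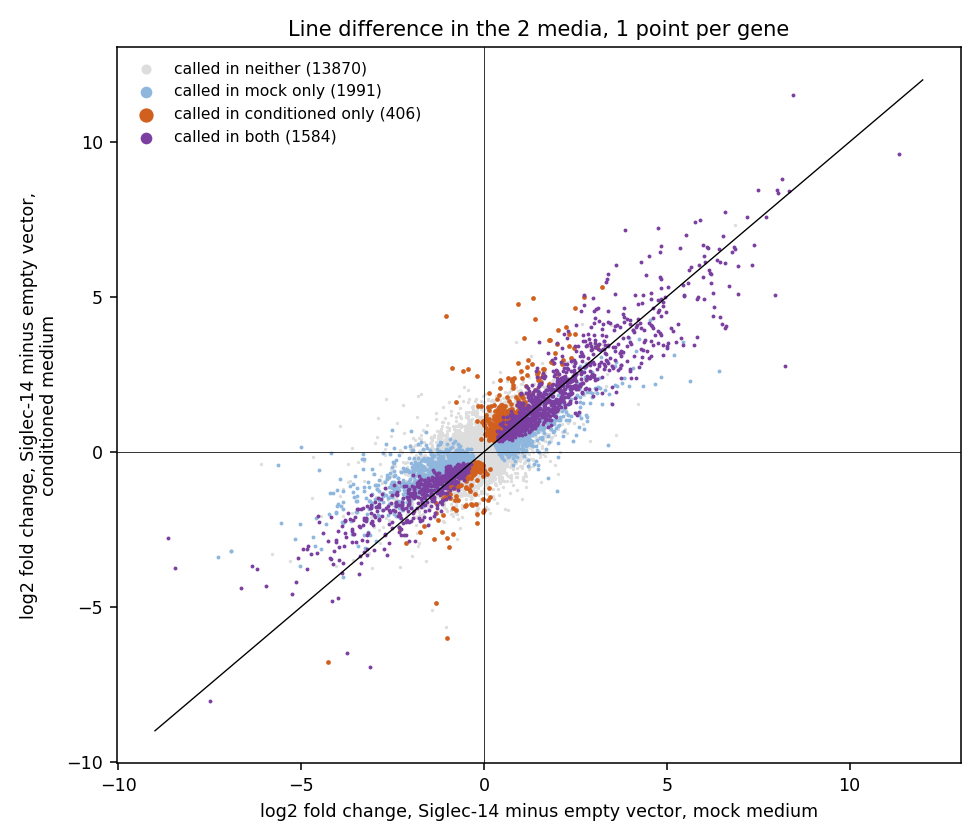
Log2 fold change between the S14 and EV lines in conditioned medium (y axis) against that in mock medium (x axis), 1 point per gene tested, with the line of equality. Purple points are the 1584 genes called in both media, orange points the 406 called in conditioned medium only, blue points those called in mock medium only and grey points the rest. Every purple point has the same sign on both axes.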

How the data were processed

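RNA from NucleoZol extraction was made into TruSeq Stranded mRNA libraries, per the labels' protocols. HISAT2 and GRCh38 are named in the submitters' processing notes, without their roles. The authors deposited raw read counts and TPM (length-scaled transcript abundance) per gene in 1 table. The sources used here do not state the counting program, its annotation or its use of strand. The counts were used as deposited and the deposited TPM were not used for any test.

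Counts of all 18 libraries were fitted in edgeR 4.0.16 (R 4.3.3) with the quasi-likelihood test, robust dispersion, TMM factors, filterByExpr (minimum count 10) and 1 mean per group. The groups not compared, among them those of the Siglec-5 line, served to estimate the spread. Genes with a Benjamini-Hochberg adjusted p under 0.05 over the 17851 tested were called. Each adjusted p is from this fit unless another fit, setting or omitted library is named with it. Such values come from the same test and were adjusted over the genes tested in the fit named. Fold changes are log2 of S14 over EV ± SE. That SE was derived as the absolute log2 fold change over the square root of the F statistic of the test. It is approximate, above all for genes with almost no counts in a line. CPM use TMM factors, and pair differences are of log2 CPM with a prior count of 2. The block fit added the replicate number. Same-numbered libraries deviated together from their group means across genes, with correlations of 0.269, 0.370 and 0.590. The titles' numbers were therefore taken as pairing the libraries. Replicates 1 and 2 were not matched by these values: EV replicate 1 with S14 replicate 2 gave 0.293, and EV replicate 2 with S14 replicate 1 gave 0.480. Replicate 3 of either line correlated negatively with replicates 1 and 2 of the other (-0.351 to -0.531). Intervals of count ratios are exact and cover counting error only. The fit was also run on simulated counts. Of 100 genes changed by 1 on the log2 scale, it recovered 38% without the block and 36% with it. Of 100 changed by 2, it recovered 98% and 97%. The changed genes were drawn only from those above a minimum level, so these rates do not cover genes with few counts. Each fit also called 5 unchanged genes. The simulated counts held no replicate effect, so they cannot show how the block acts in these data.

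Gene positions are from GENCODE 29 (GRCh38), which held 58516 of 60623 identifiers (96.52%), and promoters from RefSeq (GRCh38.p14). Of 816 list members 815 were matched. The libraries compared and the gene lists were chosen with earlier results of these data known. Named genes were up to 12 called genes per direction with the largest change, at least 10 CPM and no overlap, up to 8 per direction with the highest level and a change of at least 2-fold, up to 6 per direction called only with the block, and up to 4 per list and role by smallest p. Some genes that this rule names are not reported here. Alternatives were other scaling (RLE, upper quartile), filters, DESeq2 1.42.0, the 2 groups alone, replicates 1 and 2 alone, the block, and each library left out in turn.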

Additional observations from a re-analysis of the deposited data

How the results depend on the processing

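Adding the replicate number as a block raised the genes called in conditioned medium from 1990 to 4207. In mock medium it raised them from 3575 to 6672. A blocked fit of the EV and S14 conditioned medium libraries alone called 3205. The difference between media stayed at 0 with the block. Replicates 1 and 2 alone gave 7825, 9921 and 4328 genes for conditioned medium, mock medium and the difference. Leaving out 1 library at a time gave 1164 to 2114 genes in conditioned medium, 2264 to 4939 in mock medium and 0 to 107 for the difference, which was 3 with DESeq2. Other settings stayed within 1.5 times the count in conditioned medium: 2005 with RLE factors, 1964 with upper-quartile factors, 1548 without the filter, 1951 with a minimum of 1 CPM, 1371 with the compared groups alone and 2558 with DESeq2. Of 189 named genes called, 122 kept the call without each library in turn. Upper-quartile factors ended the calls of CXCL16, IRF9, ITGAX, LCP2, LPL, SLC1A5 and TRIB3 (adjusted p from edgeR 0.0503 to 0.0722). Testing without the filter ended those of ADAMTS4, B2M, BIRC3, CASP5, CCL20, CD83, CX3CR1, CXCL16, GAS6, IRF1, IRF9, ITGAX, ITM2C, KIF26B, LCP2, LPL, LYZ, MMP7, MYB, NEU1, NT5DC2, PTPN6, RB1, SLC11A2, SLC16A3, ST6GALNAC3 and TRIB3 (adjusted p from edgeR 0.0503 to 0.165). Fitting the compared groups alone ended those of ADAMTS4, ASNS, B2M, BBC3, BIRC3, C3, CASP5, CCND2, CLCF1, CTSD, CX3CR1, FCGR1A, GADD45B, GARS1, IDI1, INSIG1, IRF9, ITGAX, ITM2C, KIF26B, LCP2, MMP7, MRC1, MTHFD2, NAIP, NEU1, NT5DC2, OSCAR, PFKFB4, PGD, PTPN6, RB1, SARS1, SESN2, SLC11A2, SLC16A3, SLC1A5, SLC38A2, SLC3A2, SLC6A9, ST6GALNAC3, SYK, TLR7, TLR8, TNFSF13, TRIB3, USP18 and XBP1 (adjusted p from edgeR 0.0504 to 0.187). A blocked fit of the compared groups alone ended those of ADAMTS4, ASNS, C3, IDI1, INSIG1, LCP2, MRC1, ST6GALNAC3 and TRIB3 (adjusted p from edgeR 0.0501 to 0.15). Among single values of named genes over all alternatives, 2804 stayed on their side of the threshold, 311 lost the call, 60 gained it and 4 changed sign, all of uncalled mitochondrially encoded mRNAs: ND1 was at -0.10 in replicates 1 and 2 alone, and with 1 library left out at a time COX1 was at -0.035 to 0.31, ND4 at -0.037 to 0.37 and ND1 at -0.051 to 0.23, each lowest without S14 conditioned medium replicate 3. The causes of these shifts were not tested. Genes below about 1 CPM rest on few counts per library.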
